A study of Mus musculus with 3 samples.

Results

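The genes described are 34 genes stimulated by type I interferon, taken by symbol from a list and found under exactly these symbols among the 53802 gene identifiers of the count matrices. They are Isg15, Usp18 and Herc6, of the ISG15 conjugation system; Ifit1, Ifit2, Ifit3 and Ifit3b; Oas1a, Oas2, Oas3 and Oasl2; the antiviral effectors Mx1, Mx2, Rsad2, Cmpk2, Bst2, Isg20, Trim30a, Slfn5, Slfn8, Ifi44 and Rtp4; the nucleic acid sensors and Ifi200 genes Ifih1, Ddx58, Zbp1, Ifi204, Ifi205 and Ifi209; and Irf7, Stat2, Parp14, Phf11d, Xaf1 and Ifi27l2a. Ly6Chi monocytes, which enter injured liver from the blood, had been sorted from livers of male C57BL/6 mice aged 8 weeks, 24 h after acetaminophen (300 mg/kg into the peritoneum, after a fast of 12 h, with chow back after 2 h). Commd10fl/fl mice, which carry floxed and undeleted Commd10, gave 2 control libraries, numbered 1 and 3 in the labels, and LysMDCommd10 mice gave 1 knockout library, numbered 4. The LysM driver acts in myeloid cells at large and not in monocytes alone, and all 3 libraries came from injured livers, so no uninjured level is given here. The labels do not say how many mice a library held, and the p-values therefore reflect how far libraries scatter, a scatter that may be technical.

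Type I interferons bind a receptor built of IFNAR1 and IFNAR2, and the kinases JAK1 and TYK2 then activate a transcription factor, of which STAT2 and IRF9 are parts, that binds the interferon stimulated response element in promoters and switches on a shared set of antiviral genes. Monocytes and macrophages both make and answer type I interferon, and STAT2, IRF7, USP18 and the sensors RIG-I (Ddx58) and MDA5 (Ifih1) are themselves products of the response they take part in.

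The members lie on 14 chromosomes of GRCm38, in GENCODE M21. Mx2 is annotated there as a polymorphic pseudogene and the other members as protein-coding. The 4 Ifit genes share one stretch of 99.3 kb on chromosome 19, chr19:34550694-34650009, and Ifi204, Ifi205 and Ifi209 lie within 401 kb on chromosome 1. A promoter window of 300 bases was found in RefSeq (GRCm38.p6) for 25 of the 34 members. There was none for Ifi204, Ifi27l2a, Mx1, Mx2, Oas2, Parp14, Rtp4, Usp18 and Zbp1. The core of the response element, GAAA followed by any 2 bases and a second GAAA, on either strand (on the other strand TTTC, any 2 bases, TTTC), stood in the window of 15 of the 25 (60%), against 1079 of 27025 genes in all (3.99%). A stricter form, the same core followed directly by CT, stood in 8 of the 25 (32%), against 0.303% of genes. The core of the gamma activated sequence, TTCNNNGAA, stood in 4 of the 25 (16%), against 9.55% of genes. Both strands were searched, and overlapping matches were counted. The windows below are of 5 members on which the results on co-detection and on cell groups turn, upstream of their start sites. Core matches are in capitals. They are Ifit1 (chr19:34640755-34640843, plus strand), Ifit3 (chr19:34583343-34583446, plus strand), Rsad2 (chr12:26456533-26456602, minus strand), Isg15 (chr4:156200845-156200926, minus strand) and Bst2 (chr8:71537557-71537632, minus strand), each read 5′ to 3′ along the gene.
Ifit1: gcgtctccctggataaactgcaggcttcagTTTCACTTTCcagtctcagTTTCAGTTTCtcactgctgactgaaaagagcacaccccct
Ifit3: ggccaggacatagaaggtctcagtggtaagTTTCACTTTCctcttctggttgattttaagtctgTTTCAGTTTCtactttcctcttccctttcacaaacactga
Rsad2: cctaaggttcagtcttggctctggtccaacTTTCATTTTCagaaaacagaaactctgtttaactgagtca
Isg15: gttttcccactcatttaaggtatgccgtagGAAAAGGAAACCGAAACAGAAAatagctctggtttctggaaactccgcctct
Bst2: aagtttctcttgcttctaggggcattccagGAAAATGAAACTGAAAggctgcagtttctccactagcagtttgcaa
Ifit1 and Ifit3 each held 2 separate core matches, on the reverse strand. Isg15 held 3 overlapping matches in a single run and Bst2 held 2. The stretch of 104 bases shown for Ifit3 was identical in Ifit3b, its neighbour in the cluster. The 10 members whose windows held no core match were Cmpk2, Herc6, Ifi209, Ifi44, Ifit2, Irf7, Isg20, Oasl2, Phf11d and Xaf1. A match describes the letters only, and no factor binding was measured.

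Of 4814, 8109 and 5152 barcodes, 4115, 7449 and 4457 passed the filters in control 1, control 3 and knockout 4, with medians of 8770, 8160 and 6865 UMIs (unique molecular identifiers, each standing for 1 captured transcript). Pairs of libraries shared between 8 and 26 barcodes. After cells with markers of lymphocytes, plasmacytoid dendritic cells or mature neutrophils were set aside, 4044, 7378 and 4404 monocyte-macrophage cells remained, with 38549589, 71541206 and 29396104 UMIs. All 8 monocyte markers were detected in each library, summing to between 7052 and 9867 CPM (counts scaled to the library total), beside 3.70 to 5.63 for 5 Kupffer cell markers and 0.391 to 0.612 for 5 T cell markers. The 7 macrophage markers, among them the C1q genes, summed to between 5022 and 6366, so the sorted cells also carried a macrophage program. Commd10 itself had 17.2 CPM in control 1, 10.3 in control 3 and 8.59 in the knockout, lowest in the knockout but near control 3 (log2 difference -0.67 ± 0.32 (SE), adjusted p = 0.640, edgeR). Where the 3′ tags lie relative to the deleted part was not tested.

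The members spanned a wide range of levels, from Ifi27l2a down to Ifi44, with the highest mean 1737 times the lowest. Levels are CPM, the UMIs of a gene scaled to the library's total with TMM. Since 1 UMI is counted at the 3′ end of a transcript whatever its length, these levels were not scaled to transcript length. How evenly genes are captured and their reads assigned was not tested, so the order of levels across genes is approximate. Ifi27l2a, a small interferon-induced protein, led with 1877 in control 1, 2435 in control 3 and 2567 in knockout 4. It alone gave 46.2%, 47.5% and 51.6% of all member UMIs, so sums over the list are given without it, and for marker gates also with it. Ifi204, a DNA-binding sensor of the Ifi200 family, followed at 312, 399 and 398. Both were lowest in control 1, and for Ifi204 control 3 and the knockout could not be told apart.

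Bst2, which tethers budding virus particles to the cell surface, had 213 CPM in control 1, 249 in control 3 and 225 in the knockout. Slfn5, a Schlafen family gene, stood at 189, 263 and 182. Trim30a, a tripartite motif protein that dampens Toll-like receptor signals, stood at 147, 180 and 149. In all 3 genes control 3 was highest, and the knockout lay near control 1.

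Isg15, the ubiquitin-like modifier of the response, stood at 141, 146 and 166 CPM, and was the only one of the 12 most abundant members besides Ifi27l2a that was highest in the knockout library. Rtp4, a chaperone of receptor transport that also restricts viruses, stood at 133, 144 and 141. Parp14, an ADP-ribosyltransferase, stood at 115, 157 and 121. The 3 libraries were close together for Rtp4, and for Parp14 control 3 stood apart from the other two.

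Ifi209 stood at 99.3, 147 and 131 CPM, and Irf7, the factor that amplifies interferon transcription, at 107, 145 and 121. Zbp1, a sensor of Z-form nucleic acid, stood at 91.5, 111 and 106, and Oasl2, an oligoadenylate synthetase-like gene, at 73.4, 91.8 and 74.3. In all 4 genes control 1 was lowest, control 3 highest and the knockout between them. The other 22 members lay below Oasl2, down to Ifi44 at 1.22, 1.53 and 1.22. Of all members, 11 had a mean above 100 CPM and 8 a mean below 20. For Oas1a, Ifi205 and Ifi209 the assignment of reads is uncertain, since 56.1%, 79.2% and 63.4% of the 50-base words in the last 500 bases of their transcripts also occur in Oas1g, Ifi211 and Ifi214, and for Ifit3 14.9% occur in Ifit3b.

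**Figure D1:**
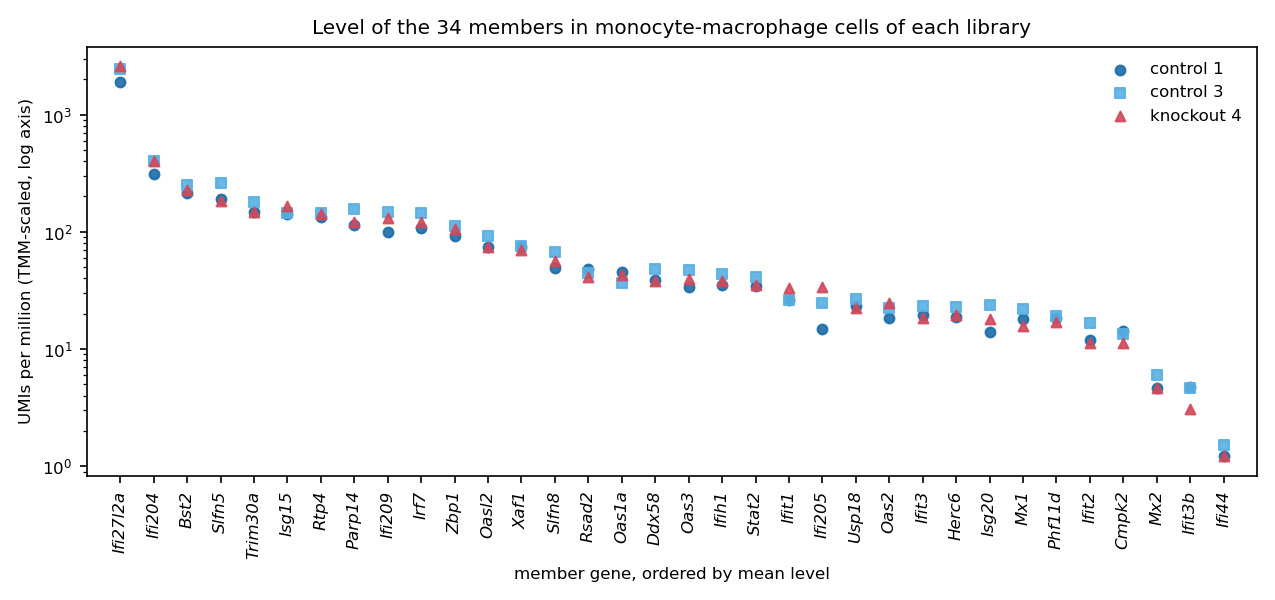
Level of each of the 34 members in monocyte-macrophage cells, as CPM scaled by TMM (log axis), with 1 point per library. Ifi27l2a stands at 1877, 2435 and 2567 in control 1, control 3 and knockout 4, far above all others, and the points of the 3 libraries lie close together for most members.

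Within single cells the members were detected together more often than their separate frequencies give. To set cells of unequal depth side by side, each was thinned at random to 3000 UMIs, and 527, 713 and 757 shallower cells were left out of all cells that passed the filters in control 1, control 3 and knockout 4. The thinned monocyte-macrophage cells numbered 3540, 6689 and 3665. A cell then held UMIs of a median of 5, 6 and 5 members, up to 32, 30 and 28, and 0.395%, 0.224% and 0.218% of cells held none. The standard deviation of that number over cells was 3.36, 3.43 and 3.43, against 1.90, 1.97 and 1.89 for members drawn independently at the same frequencies. The variance of the summed member UMIs without Ifi27l2a was 7.59, 6.35 and 8.54 times their mean.

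Cells with at least 10 members detected made up 11.7% of control 1 (95% interval 10.6% to 12.8%), 16.1% of control 3 (15.3% to 17.0%) and 13.3% of knockout 4 (12.2% to 14.4%). These intervals are exact Clopper-Pearson intervals and cover counting error only. The knockout share lay between those of the 2 controls here, and the difference was not tested. Its place turned with the setting: the knockout was highest with at least 15 members (2.06%, 2.30% and 2.48%) and lowest with at least 5 members (59.0%, 69.3% and 58.8%) or at 5000 UMIs (28.9%, 38.3% and 28.6%). In unthinned cells the shares were 50.5%, 58.8% and 38.0% with the knockout lowest, and its median UMI count was also the lowest. The tenth of cells with the most member UMIs (without Ifi27l2a) held 30.8%, 28.4% and 32.0% of them. No cell type known to lack these genes was at hand, and lymphocyte-gated cells give no background level. Their monocyte markers summed to 5676 and 7938 CPM in control 1 and control 3 and their macrophage markers to 4946 and 4459, near the levels of the monocyte-macrophage cells. Of the few lymphocyte-gated cells that could be thinned, 2 of 26 in control 1 (7.69%, interval 0.946% to 25.1%, median 23441 UMIs before thinning) and 0 of 21 in control 3 (up to 16.1%, median 9763 UMIs) held 10 or more members. Doublets were not called or removed. Without cells above 2 times their library's median UMI count, which made up 8.31%, 11.05% and 2.45% of cells, the shares were 11.8%, 15.9% and 13.3%.

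**Figure D2:**
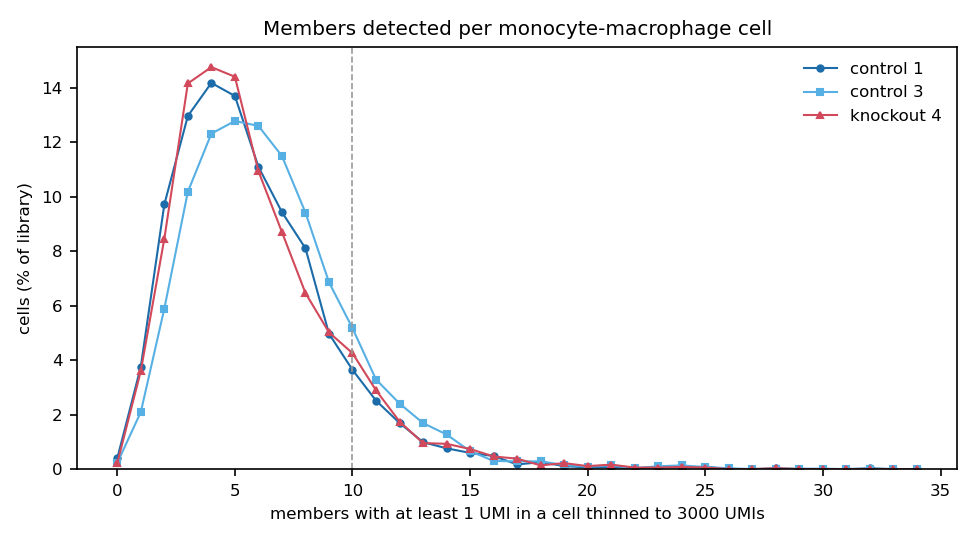
Share of monocyte-macrophage cells (vertical axis, % of each library) by the number of members with at least 1 UMI after thinning to 3000 UMIs (horizontal axis), 1 line per library, with the dashed line at 10 members. The lines of control 1 and knockout 4 lie close together, control 3 is shifted to higher numbers (median 6 against 5), and all 3 have a long right tail.

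Taken pair by pair, the share of cells with both members was a median of 1.46, 1.37 and 1.47 times the product of the separate shares in control 1, control 3 and knockout 4. The ratio was above 1 in 475 of 485, 519 of 526 and 471 of 476 pairs that had at least 5 such cells to be expected. Over all pairs among 7769 genes detected in at least 2% of cells, the median ratio was 1.00 and 50.3%, 50.9% and 51.0% of ratios were above 1. For pairs among the 30 members in that set it was 1.44, 1.32 and 1.44, with 98.1%, 99.1% and 99.3% above 1. The correlations behind these ratios were small, as they are in sparse counts. The median Spearman correlation of a member pair over cells was 0.074, 0.072 and 0.084. Yet of the pairs among the 30 members in that set of genes, 78.9%, 84.1% and 76.6% exceeded the 99th percentile of all pairs, which was 0.048, 0.041 and 0.052. Cells of a library share its depth and its free RNA, and these values carry no test.

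The Ifit genes and Rsad2 were the most tightly co-detected members. IFIT proteins bind viral RNA that lacks the host cap, and RSAD2 (viperin) makes a nucleotide that ends viral RNA chains. Ifit1 was detected in 5.03%, 4.74% and 4.86% of cells in control 1, control 3 and knockout 4, and Ifit3 in 3.81%, 4.14% and 3.00%. Both were detected in the same cell in 1.19%, 1.33% and 1.20% of cells, which is 6.19, 6.78 and 8.24 times the product of the shares. For Ifit3 with Rsad2 the ratio was 4.72, 5.30 and 6.84. The highest correlation of any pair was that of Ifit2 with Ifit3, at 0.281, 0.278 and 0.357. Their ratio is given for control 3 alone, at 8.79, as under 5 such cells were to be expected in the other two libraries. The ratios were high in every library, the knockout included.

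The role groups did not all hold together. Within the IFIT family the mean correlation was 0.234, against 0.105 between its genes and those of other groups. Within the ISG15 conjugation group it was 0.108 against 0.095. For the oligoadenylate synthetase family it was 0.061 within against 0.067 to other groups, so Oas1a, Oas2, Oas3 and Oasl2 were no more co-detected with each other than with unrelated members. The remaining 3 groups likewise had means within the group (0.073 to 0.074) below those to other groups (0.076 to 0.081). Isg15 had a mean correlation of 0.134 with all other members and Ifit3 likewise of 0.134, the highest of the list. Ifi44, Oas1a and Oas2, at 0.036, 0.037 and 0.043, had the lowest. Cutting the tree of correlations into 2, 3 or 4 groups split off only these 3 genes, one at a time, and so did not separate the Ifit genes either. Isg15 correlated with Rtp4 at 0.209, with Oasl2 at 0.209 and with Irf7 at 0.197 (means of the 3 libraries), about as high as Ifit2 with Rsad2 at 0.204. Ifit1, Ifit3, Rsad2, Isg15 and Bst2, whose promoter windows stand above, were chosen among members with a match to the response element core. Ifit2, of the most correlated pair, had no match in its windows, while Oas1a, among the least correlated, did.

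**Figure D3:**
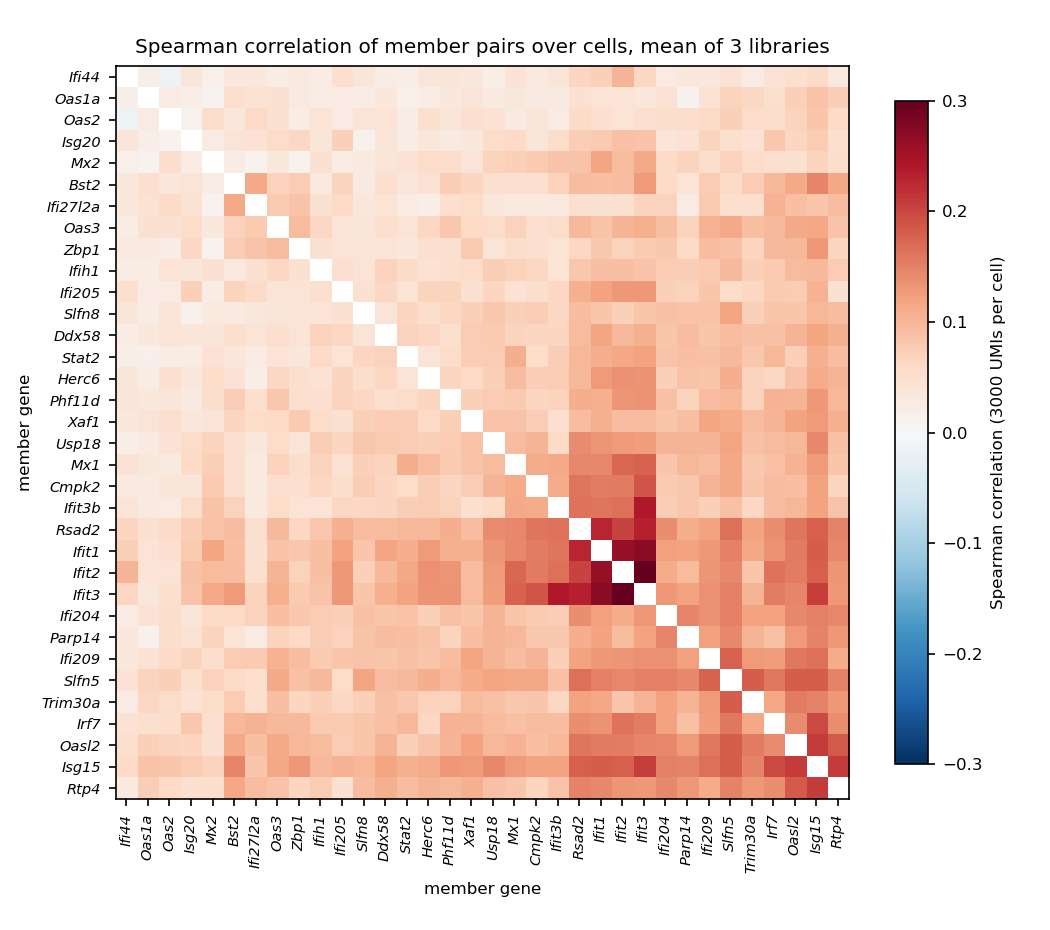
Spearman correlation over cells for each pair of members (colour, mean of the 3 libraries, cells thinned to 3000 UMIs), ordered by average linkage, with the diagonal left white and the colour scale ending at 0.3. Ifit1, Ifit2, Ifit3 and Rsad2 form the darkest block, with 0.306 for Ifit2 and Ifit3, while Ifi44, Oas1a and Oas2 at the upper left are pale throughout.

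The members differed in how far their detection followed the others. Ifit3 was detected in 19.1%, 17.3% and 16.1% of cells that held at least 10 other members in control 1, control 3 and knockout 4, but in 0.204%, 0.544% and 0.222% of cells with at most 2 others. Rsad2 was detected in 29.5%, 20.7% and 19.7% against 1.41%, 0.543% and 0.665%. Isg15 was detected in 62.7%, 55.4% and 61.5% against 7.34%, 8.95% and 8.92%. These 3 genes were thus seldom detected at this depth in cells low in the rest of the list. Bst2 was detected in 58.4%, 59.8% and 60.8% against 32.8%, 37.2% and 33.3%. Ifi27l2a, found in 91.0%, 92.4% and 93.7% of all cells, was detected in 92.2%, 92.7% and 97.3% against 89.5%, 90.5% and 92.8%. Ifi27l2a was thus detected in nearly all cells, whether or not other members were, and Bst2 in many cells low in the rest of the list.

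Genes outside the list that followed it most were mostly interferon genes too. They were ranked by the lowest of the 3 libraries' correlations with the number of members detected in a cell. Among the 10 highest were Ifi203, Slfn1, Mndal, Rnf213, Ifi47, Mnda, Sp100, Gm8995 and Ms4a4c. Of the 10, 6 were on a list of other interferon stimulated genes, 1 (Ifi47) on a list of genes induced by interferon gamma, and 2 (Rnf213 and Gm8995) on no list. For Ifi203, a further Ifi200 gene, the correlation was 0.304, 0.268 and 0.279. At the other end stood Actg1 (-0.163, -0.144 and -0.192) and Vim (-0.114, -0.126 and -0.180), cytoskeletal genes. Vcan (-0.091, -0.080 and -0.096) and S100a8 (-0.080, -0.084 and -0.112), used as marker genes below, were also among the lowest. The correlations are over 3540, 6689 and 3665 cells of which all genes share the fixed total of 3000 UMIs. The part of that fixed total in these values was not tested.

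Cells were next sorted by marker genes, none of which is a member, into gates applied in a fixed order. First came C1q genes (macrophage markers), 2 of Ace, Spn and Treml4 (patrolling monocyte markers) and MHC class II genes. Then came S100a8 and S100a9, then Ly6c2, Vcan and Chil3 (classical Ly6Chi monocyte markers), and a remainder. A gate is a range of marker counts and not a cell type. Within 20% of its threshold lay 144, 234 and 126 cells for C1q in control 1, control 3 and knockout 4, 169, 344 and 147 for MHC class II and 121, 100 and 188 for S100a8. The Ly6c2/Vcan gate, the largest with 1631, 3668 and 2002 cells, served as reference, and gates of the same library were paired, so these comparisons rest on 3 libraries whatever their genotype. Summed without Ifi27l2a, members were lowest in the S100a8 gate and highest in the C1q and MHC class II gates. Without Ifi27l2a the members summed to 1821, 2126 and 1899 CPM in the S100a8 gate of control 1, control 3 and knockout 4, against 2278, 2590 and 2304 in the reference. They summed to 2384, 2879 and 2745 in the C1q gate and 2533, 2865 and 2606 in the MHC class II gate. Within every library the S100a8 gate was below the reference and the C1q and MHC class II gates above it. With Ifi27l2a, the S100a8 gate summed to 3628, 4207 and 4142 CPM, against 4175, 5000 and 4766 in the reference. The C1q gate then had 4255, 5223 and 5303, the MHC class II gate 4559, 5340 and 5365, and the Ace/Spn/Treml4 gate 4217, 5301 and 5276. The S100a8 gate was again lowest in each library, but in control 3 the Ace/Spn/Treml4 gate was above the C1q gate.

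In the S100a8 gate 18 of 33 members tested fell and 1 rose (54.5% and 3.03%), where 9.0% of 11305 genes fell and 8.18% rose. The median log2 difference of the members was -0.33, against -0.0087 for all genes, and all 18 that fell were lower in 3 of 3 libraries. Neutrophil markers (3 to 4 of 7 above 0) summed to 286, 364 and 347 CPM in this gate against 165, 224 and 176 in the reference, and macrophage markers (7 of 7) to 1891, 1903 and 1256 against 4001, 5068 and 3549. Their part in the result was not tested. Rtp4 stood at 57.5, 61.3 and 60.3 CPM in the S100a8 gate of control 1, control 3 and knockout 4, and at 131, 129 and 130 in the reference. The 2 gates did not overlap, and the log2 difference was -1.12 ± 0.07 (SE, n = 3 libraries; adjusted p = 3.8e-08, edgeR). Ifi205 stood at 3.91, 10.7 and 14.0 against 14.1, 22.5 and 30.4, lower in each library, and the ranges of the 2 gates met without overlapping (-1.23 ± 0.16, adjusted p = 3.96e-05, edgeR).

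Rsad2 stood at 41.6, 17.2 and 19.2 CPM in the S100a8 gate against 55.2, 34.7 and 42.6 in the reference, lower in each library with ranges that overlapped (-0.81 ± 0.13, adjusted p = 0.000354, edgeR). Ifit2 stood at 8.17, 9.01 and 4.75 against 11.8, 11.8 and 12.5 (-0.80 ± 0.21, adjusted p = 0.013, edgeR), a call that was lost without the knockout library (adjusted p = 0.259). Zbp1 was the member that rose, at 119, 114 and 149 against 91.5, 115 and 97.5 (0.34 ± 0.09, adjusted p = 0.0172, edgeR). It was higher in 2 of 3 libraries, and the call was lost without the knockout library (adjusted p = 0.238). By role, 5 of 6 transcription factors and others fell, 3 of 4 oligoadenylate synthetase genes (Oas1a, Oas2 and Oasl2), 3 of 6 sensors and Ifi200 genes, 2 of 4 IFIT genes, 4 of 10 antiviral effectors and 1 of 3 ISG15 conjugation genes. Cells with at least 10 members detected at 3000 UMIs made up 5.50%, 8.86% and 6.49% of this gate, against 11.7%, 14.8% and 12.0% of the reference (counting intervals 3.18% to 8.78%, 5.57% to 13.2% and 4.61% to 8.84%, against 10.1% to 13.5%, 13.6% to 16.02% and 10.5% to 13.7%). The shares of the 2 gates did not overlap.

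In the C1q gate 11 of 34 members rose and 2 fell (32.4% and 5.88%), where 11.0% of 12058 genes rose and 12.3% fell. The median of the members was 0.13, against -0.015 for all genes. Of the 11 that rose, 9 were higher in 3 of 3 libraries. Kupffer cell markers (4 to 5 of 5 above 0) summed to 15.9, 13.3 and 10.9 CPM in this gate against 2.11, 1.72 and 2.63 in the reference, and platelet markers (3 to 4 of 4) to 360, 304 and 978 against 129, 84.7 and 263. Their part in the result was not tested. Bst2 stood at 271, 325 and 348 CPM in the C1q gate of control 1, control 3 and knockout 4, and at 201, 220 and 190 in the reference, without overlap (log2 difference 0.62 ± 0.07, adjusted p = 0.000101, edgeR). Phf11d, a PHD finger gene, stood at 25.05, 29.0 and 30.5 against 17.5, 15.9 and 13.5 (0.83 ± 0.11, adjusted p = 0.000183, edgeR). Ifit3 stood at 23.4, 34.7 and 27.8 against 20.1, 17.5 and 14.4 (0.74 ± 0.13, adjusted p = 0.00148, edgeR). All 3 were above the reference in each library, and none of their ranges overlapped.

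Ifi44 had the largest difference in the C1q gate but stood near 1 CPM, at 1.54, 2.34 and 1.51 against 0.790, 1.04 and 1.04 (0.98 ± 0.28, adjusted p = 0.0253, edgeR), and was not called without control 1 or without control 3 (adjusted p = 0.0616 and 0.266). The 2 members that fell were Isg20, an exonuclease that degrades RNA, at 9.82, 19.0 and 14.5 against 14.5, 26.2 and 17.0 (-0.43 ± 0.10, adjusted p = 0.00638, edgeR), and Ifi209, at 89.0, 119 and 110 against 108, 165 and 142 (-0.37 ± 0.06, adjusted p = 0.00085, edgeR). Both were lower in each library. Isg20 was not called without control 3 (adjusted p = 0.0745).

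In the MHC class II gate 12 of 33 members rose and 1 fell (36.4% and 3.03%), where 7.43% of 11466 genes rose and 8.24% fell. The median of the members was 0.14, against -0.0084 for all genes. Of the 12 that rose, 10 were higher in 3 of 3 libraries. Ifit3 stood at 36.4, 28.8 and 28.1 CPM against 19.9, 17.2 and 14.2 in the reference, without overlap (0.83 ± 0.12, adjusted p = 8.49e-07, edgeR). Phf11d stood at 31.9, 20.4 and 23.7 against 17.4, 15.7 and 13.4, also without overlap (0.63 ± 0.14, adjusted p = 0.000622, edgeR). Ifit3b stood at 14.6, 6.26 and 2.96 against 4.98, 3.95 and 2.51 (0.92 ± 0.26, adjusted p = 0.00822, edgeR), and Ifit2 at 28.5, 15.9 and 12.3 against 11.8, 11.7 and 12.5 (0.58 ± 0.17, adjusted p = 0.0118, edgeR). Both differences were largest in control 1. Without that library they were 0.58 and 0.31 (adjusted p = 0.28 and 0.371), and without control 3 the adjusted p was 0.0531 and 0.0563. Ifi209 fell here too, at 84.5, 133 and 113 against 107, 163 and 140 (-0.31 ± 0.07, adjusted p = 0.00101, edgeR). Bst2, Ifi205, Ifit2, Ifit3, Isg15, Oasl2, Phf11d and Rtp4 rose in both this gate and the C1q gate, which is 8 of 12 and 8 of 11. The 2 comparisons share the reference cells, and the overlap over all genes is not given, so the 8 cannot be set against a background. Dendritic cell markers (7 listed) were higher in the MHC class II gate, summing to 22.1, 48.2 and 4.36 CPM against 1.96, 8.38 and 2.48 in the reference. Their part in the result was not tested.

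In the Ace/Spn/Treml4 gate 1 of 34 members rose and 0 fell, where 4.87% of 12080 genes rose and 4.11% fell. The one was Oas3, at 39.4, 53.6 and 46.5 CPM against 31.4, 47.6 and 36.1 (0.27 ± 0.07, adjusted p = 0.0448, edgeR), higher in each library and not called without either control (adjusted p = 0.291 without control 1 and 0.0757 without control 3). The median was 0.025, so this gate stood close to the Ly6c2/Vcan gate for the members as a group. Its cells also carried Ly6c2, Vcan and Chil3. Their summed medians were 22.1, 40.2 and 24.8 UMIs per 10000 in control 1, control 3 and knockout 4, against 29.1, 51.7 and 39.7 in the reference. In the remaining cells 2 of 33 fell, Ifi209 (89, 120 and 119 against 108, 165 and 140; -0.33 ± 0.09, adjusted p = 0.0413, edgeR) and Ifi27l2a (1539, 2002 and 2135 against 1881, 2439 and 2504; -0.27 ± 0.04, adjusted p = 0.000591, edgeR), where 4.17% of 10971 genes fell, 3.55% rose and 7.72% did either. Ifi209 was not called once any 1 library was left out.

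By DESeq2 the counts were fewer, with 10 members lower and 1 higher in the S100a8 gate, 6 higher and 1 lower in the C1q gate, 7 higher and 1 lower in the MHC class II gate, 0 in the Ace/Spn/Treml4 gate and 1 lower in the remaining cells. Without pairing by library, Rtp4 was lower in the S100a8 gate and Phf11d higher in the C1q gate and no other member was called in any gate. The share of all genes called by DESeq2 or without pairing is not given, so these counts have no background beside them.

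**Figure D4:**
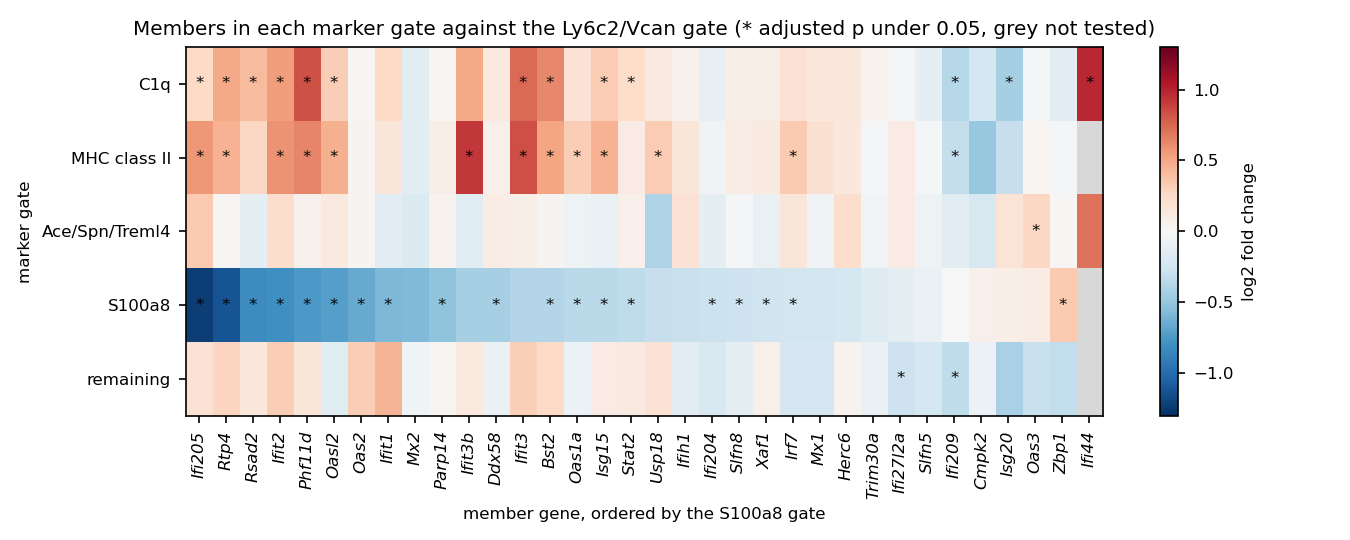
Log2 difference of each member between a marker gate and the Ly6c2/Vcan gate (colour), with stars at an adjusted p under 0.05 (edgeR, 3 libraries, paired) and grey where a member was not tested. The S100a8 row is mostly blue (18 stars lower and 1 higher), the C1q and MHC class II rows are mostly red (11 and 12 stars higher), and the Ace/Spn/Treml4 row holds 1 star.

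Other parts of the pathway were read from the same comparisons. Of all genes, 8.18% rose and 9.0% fell in the S100a8 gate. These shares were 11.0% and 12.3% in the C1q gate, and 7.43% and 8.24% in the MHC class II gate. The counts that follow were not tested against them. Of 12 receptor and signalling genes, 1 rose and 2 fell in the S100a8 gate, and the 2 were the receptor chains Ifnar2 (-0.34 ± 0.06, adjusted p = 0.00128, edgeR) and Ifnar1 (-0.35 ± 0.07, adjusted p = 0.00137, edgeR). In the C1q gate 1 of the 12 rose and 3 fell, with a median of -0.14, and in the MHC class II gate 1 rose and 1 fell. Ifnar2 was the one that rose in the C1q gate (0.18 ± 0.05, adjusted p = 0.0293, edgeR) and in the MHC class II gate (0.27 ± 0.06, adjusted p = 0.00212, edgeR). Those that fell in the C1q gate were Socs3 (-0.65 ± 0.08, adjusted p = 0.000172, edgeR), Jak2 (-0.39 ± 0.08, adjusted p = 0.00301, edgeR) and Ifngr1 (-0.20 ± 0.05, adjusted p = 0.0182, edgeR). Of the upstream sensing genes, 0 of 13 rose and 3 fell in the S100a8 gate, 1 of 14 rose and 2 fell in the C1q gate (median -0.10), and 1 of 13 rose and 0 fell in the MHC class II gate. The 2 that fell in the C1q gate were Tmem173, which encodes the adaptor STING (-0.55 ± 0.07, adjusted p = 0.000162, edgeR), and Irf5 (-0.22 ± 0.06, adjusted p = 0.0194, edgeR). Mb21d1, which encodes the DNA sensor cGAS, differed by -0.57 ± 0.13, 0.23 ± 0.08 and 0.45 ± 0.12 in the S100a8, C1q and MHC class II gates, and was called in each. Of 44 other interferon stimulated genes tested, 12 fell and 1 rose in the S100a8 gate, 6 rose and 8 fell in the C1q gate, and 7 rose and 6 fell in the MHC class II gate, so this wider list did not lean one way in the latter 2. Lgals3bp, a secreted lectin-binding protein, differed by -0.93 ± 0.09, 1.01 ± 0.10 and 0.93 ± 0.08 in the S100a8, C1q and MHC class II gates and was called in each. Samhd1, a phosphohydrolase that depletes nucleotides, went the other way at 0.35 ± 0.05, -0.52 ± 0.06 and -0.29 ± 0.06, also called in each.

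Interferon transcripts themselves were at or near 0. Of 20 interferon genes listed, 17 had no UMI in any monocyte-macrophage cell. Ifnb1 had 4, 2 and 0 UMIs in control 1, control 3 and knockout 4, Ifnk had 1, 3 and 0, and Ifng had 0, 0 and 1. A count of 0 allows a level of up to 0.0778, 0.0419 and 0.102 CPM (3 counts of each library's total). Plasmacytoid dendritic cells, known as strong producers of type I interferon, were represented by 1 gated cell in control 1 and 0 in the others.

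The knockout was then set against the controls. None of the 34 members was called in monocyte-macrophage cells, where 23 of 14771 genes were called (0.156%) by edgeR. Among the members 1 (Ifi205, 2.94%) had an unadjusted p under 0.05, against 8.35% of all genes, and by DESeq2 0 members were called while 122 genes were. The median log2 difference of the members was -0.09, against -0.010 for all genes. Of the members 10 were above 0 and 24 below, and of all genes 7174 and 7597. The member median was 0.043 against control 1 alone and -0.24 against control 3 alone. The controls themselves differed by a median of 0.29, with 29 of the 34 members higher in control 3, against 49.8% of all genes. For 24 members the difference between the 2 controls was larger than that between knockout and control, as it was for 6839 of the 14771 genes. A knockout value between the controls favours this by itself, since the knockout is set against both controls together. The knockout lay between the controls for 17 members, above both for 5 and below both for 12, against 27.0%, 36.2% and 36.8% of all genes. A difference of the members between genotypes was thus not distinguishable from that between control libraries, and with 1 residual degree of freedom and 1 knockout library the precision is low (median SE 0.18 for the members).

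Ifi205, an Ifi200 gene, had the highest difference, with 14.9, 24.7 and 33.8 CPM in control 1, control 3 and knockout 4 (0.76 ± 0.28 (SE), adjusted p = 0.543, edgeR). The knockout was above both controls, but the controls differed by 0.73. With no filter on low counts it passed (0.74 ± 0.19, adjusted p = 0.0077, edgeR), a setting under which 432 genes were called. Over the settings tested its adjusted p ranged from 0.0077 to 0.552. Reads of Ifi205 may belong in part to Ifi211, as given above.

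Ifit1 stood at 26.4, 26.4 and 32.9 CPM (0.32 ± 0.15, adjusted p = 0.624, edgeR), and Oas2, a synthetase that activates RNase L, at 18.2, 22.3 and 24.8 (0.29 ± 0.18, adjusted p = 0.7, edgeR). In both the knockout was above both controls. The lowest differences were those of Ifit3b, at 4.76, 4.62 and 3.06 (-0.61 ± 0.27, adjusted p = 0.61, edgeR), Mx1, a dynamin-like GTPase gene, at 18.2, 22.0 and 15.6 (-0.36 ± 0.19, adjusted p = 0.653, edgeR), and Ifit2, at 12.0, 16.8 and 11.2 (-0.36 ± 0.25, adjusted p = 0.717, edgeR). Here the knockout was below both controls. The IFIT family thus held members at both ends of the order, with a median of -0.30, and no gene of it passed the test.

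**Figure D5:**
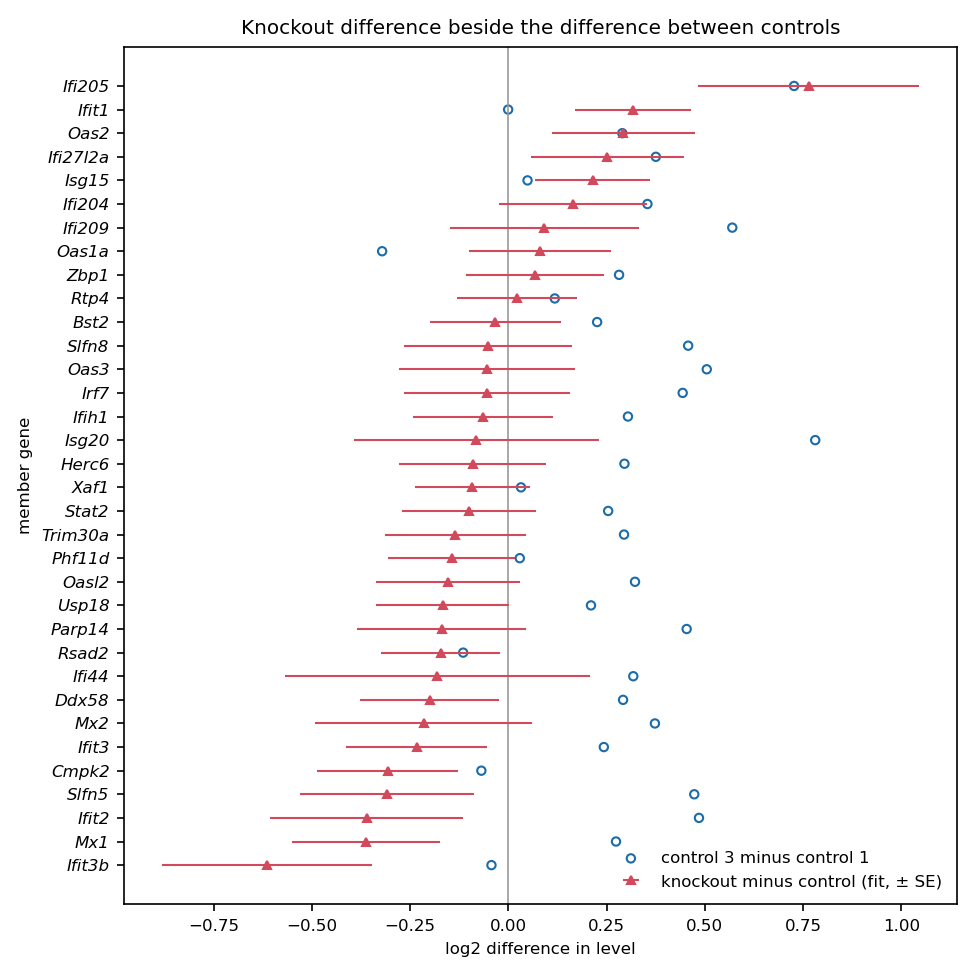
Log2 difference of each member between knockout and control (red triangles, with SE from the edgeR fit) beside that between the 2 control libraries (open blue circles). Ifi205 stands at 0.76 and Ifit3b at -0.61, and for 24 of 34 members the circle lies farther from 0 than the triangle, mostly to the right.

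The libraries also differed in makeup. The S100a8 gate, where members were low, held 7.34% and 3.34% of control cells and 14.4% of knockout cells. Platelet markers (4 of 4 above 0 in each library) summed to 165 and 128 CPM in the controls and 351 in the knockout, and hepatocyte markers (5 of 5) to 25.7 and 76.8 in the controls and 32.2 in the knockout. The part of these markers in the member values was not tested. Within single gates no member was called either, where 0.591% (C1q), 0.0825% (Ace/Spn/Treml4), 0.128% (MHC class II), 1.53% (S100a8) and 1.04% (Ly6c2/Vcan) of genes were called by edgeR. Unadjusted p-values were under 0.05 for 4, 4, 2, 1 and 1 members, where they were so for 8.16%, 6.57%, 6.47%, 11.5% and 10.4% of all genes tested. The median log2 difference of the members was 0.047, 0.0094, -0.057, -0.094 and -0.11 in the same order. Ifi205 was above both controls in all 5 gates, by 0.72 in the Ly6c2/Vcan gate up to 1.31 in the MHC class II gate. No member had a lower adjusted p than Ifi205 in any gate, and it ranged from 0.172 (C1q) to 0.669 (MHC class II, edgeR). In the Ace/Spn/Treml4 gate Rsad2 had the same adjusted p as Ifi205 (0.369, edgeR). There Rsad2 was below both controls (-0.74 ± 0.19). The gates come from the same 3 libraries and are not independent of each other. Cells with at least 10 members made up 19.6% of the C1q gate in the knockout (counting interval 16.5% to 23.1%), against 15.8% (13.2% to 18.8%) and 18.1% (15.9% to 20.6%) in the controls, and these intervals overlapped.

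Across the rest of the pathway the knockout comparison gave few calls. Of 75 genes for receptors and signalling, upstream sensing, other interferon regulatory factors and other interferon stimulated genes, none was called by edgeR or by DESeq2, and 7 of the 75 had an unadjusted p under 0.05, where 8.35% of all genes did. Jak2 stood at 31.2, 32.3 and 54.8 CPM (0.79 ± 0.14, adjusted p = 0.163, edgeR) and Socs1, a feedback inhibitor of JAK kinases, at 19.6, 11.1 and 34.3 (1.17 ± 0.30, adjusted p = 0.38, edgeR). For both the knockout was above the controls.

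Among upstream sensors the lowest p-values were those of Tlr4 at 34.7, 27.9 and 45.2 CPM, Tbk1 at 45.4, 46.4 and 56.4, and Tlr3 at 1.32, 1.54 and 0.87. Among interferon regulatory factors Irf1 stood at 60.1, 64.4 and 48.4, Irf8 at 301, 234 and 219, and Irf4 at 6.66, 5.10 and 5.15. Of 45 other interferon stimulated genes 33 had a negative difference, with a median of -0.09. Of all 14771 genes 7597 had one, with a median of -0.010. How far the 2 controls differed over this list is not given, so 33 of 45 is not read as a lowering in the knockout. Slfn9 stood at 7.25, 8.42 and 5.08, Epsti1 at 151, 177 and 121, and Pml at 13.3, 10.98 and 8.39, in each case with the knockout lowest.

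Genes induced by interferon gamma were read as a separate list. Of 15 tested, 13 had a negative difference, the median was -0.48, and 8 had an unadjusted p under 0.05 by edgeR. Of all 14771 genes 7597 had a negative difference, and 8.35% had such a p. Of these 15, edgeR called Cxcl9, a chemokine that draws T cells, at 22.9, 27.1 and 1.18 CPM (-4.40 ± 0.26, adjusted p = 0.00538), and DESeq2 called Gbp2, Cxcl9 and Cd274. Gbp2, a guanylate-binding protein, was at 28.5, 27.2 and 13.6, lowest in the knockout (-1.03 ± 0.16, adjusted p = 0.123, edgeR). Cd274, the immune checkpoint ligand PD-L1, went the other way at 28.6, 22.2 and 51.2, highest in the knockout (1.01 ± 0.19, adjusted p = 0.169, edgeR). That this list differed from the members was not tested.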

How the data were processed

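Single-cell libraries were made with 10x 3′ chemistry, per the labels' protocols, and processed with Cell Ranger 3.0.2, per the submitters' processing notes, on GRCm38. The authors deposited raw UMI counts per gene and barcode for 2 control libraries and 1 knockout library. Barcodes under 500 genes or above 10% mitochondrial UMIs were left out. No doublet caller was run. Gates used the summed UMIs per 10000 of marker genes. At least 10 were needed for C1qa, C1qb and C1qc and for S100a8 and S100a9. For H2-Aa, H2-Ab1, H2-Eb1 and Cd74 it was at least 50, and for Ly6c2, Vcan and Chil3 at least 5. The Ace/Spn/Treml4 gate instead needed 2 of these genes detected, without scaling to depth. Its median UMIs per cell were 9432.5, 10736.5 and 6647 in control 1, control 3 and knockout 4, against 8453, 7690.5 and 6771.5 in the Ly6c2/Vcan gate.

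Counts were summed per library and gate and tested across all genes with edgeR 4.0.16 (quasi-likelihood, TMM, low counts filtered, Benjamini-Hochberg adjustment, threshold 0.05) in R 4.3.3, with DESeq2 1.42.0 as an alternative. With 1 knockout library, its spread was taken to equal that of the controls. Gates were compared with library as a block, since gates of 1 library share its cells' source. The model fit was tested on simulated data. Cells were thinned to 3000 UMIs with numpy 2.4.6, and correlations and intervals used scipy 1.17.1 and pandas 2.3.3 in Python 3.11.15. Values are given for the 12 most abundant members, the 3 highest and 3 lowest knockout differences, up to 4 called members in each direction per gate, called pathway genes or else the 3 with the lowest p, and the 10 genes most like the list. In the gate comparisons called pathway genes are given as counts with examples chosen after their values were seen. The members and lists were chosen with earlier results of these data known. Alternatives covered scaling, filters, thinning, gate thresholds, the block and each library left out. One gene that the rule for named genes picked is not reported here.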

Additional observations from a re-analysis of the deposited data

Results flagged for a closer look

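Of the members named for level or knockout difference, 4 had the knockout above both controls in a marker gate and below both in another. The same pattern was present in Ifih1, Phf11d, Xaf1, Ifit3, Mx2 and Ifi44, which were outside that choice. The pattern was thus not particular to the 4, whose values follow. The difference between gates was not tested for any of these members, and none was called in any gate. Bst2 differed by 0.23 ± 0.15 (log2, SE) in the C1q gate and by -0.14 ± 0.19 in the Ly6c2/Vcan gate. Zbp1 differed by 0.36 ± 0.19 in the S100a8 gate and by -0.15 ± 0.19 in the MHC class II gate. Ifit1 differed by 0.49 ± 0.21 in the C1q gate and by -0.23 ± 0.20 in the Ace/Spn/Treml4 gate. Ifit2 differed by 0.091 ± 0.24 in the Ly6c2/Vcan gate and by -0.85 ± 0.48 in the S100a8 gate, where it had 8.16 CPM in control 1, 9.01 in control 3 and 4.75 in the knockout.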

How the results depend on the processing

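With 1 knockout library and 2 controls the precision is low, and mice per library are not given. The median knockout difference of the members ranged from -0.24 to 0.043 when 1 control was left out. For the members that changed sign, the values without control 1 and without control 3 were -0.0020 and 0.34 (Ifi204), -0.036 and 0.075 (Rtp4), -0.16 and 0.40 (Ifi209), -0.066 and 0.21 (Zbp1), -0.14 and 0.076 (Bst2), -0.27 and 0.012 (Trim30a), -0.38 and 0.068 (Parp14), -0.26 and 0.18 (Irf7), and -0.31 and 0.0093 (Oasl2). Rtp4 was also -0.025 with library totals and -0.018 in cells thinned to 3000 UMIs without those holding 10 or more members, where Ifit1 was -0.066. Irf7 was 0.0059 in thinned cells. With no filter on low counts 1 member and 432 genes were called. Genes called numbered 122 by DESeq2, 70 with at least 1000 genes and at most 5% mitochondrial UMIs per cell, 13 without cells of high UMI count, 72 in thinned cells and 65 in thinned cells without those holding 10 or more members. The causes were not tested.

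Within gates the knockout median turned to -0.096 (C1q) and -0.16 (Ace/Spn/Treml4) without control 1, and to 0.040 (S100a8) and 0.017 (Ly6c2/Vcan) without control 3. It was -0.018 in the Ace/Spn/Treml4 gate with thresholds halved and 0.094 in the MHC class II gate with thresholds doubled.

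Against the Ly6c2/Vcan gate, without the replicate block that pairs gates by library, members higher numbered 1 (C1q), 0 (Ace/Spn/Treml4), 0 (MHC class II), 0 (S100a8) and 0 (remaining), and members lower 0, 0, 0, 1 and 0, with a median of 0.12 in the MHC class II gate. No paired analysis was possible because knockout and control libraries share no replicate number in the labels. By DESeq2 the counts were 6 higher and 1 lower (C1q), 0 higher (Ace/Spn/Treml4), 7 higher (MHC class II), 10 lower (S100a8) and 1 lower (remaining, median 0.022). With no filter on low counts 2 were higher and 1 lower (Ace/Spn/Treml4), 2 lower (MHC class II, median 0.11) and 5 lower (remaining). Library totals gave 2 higher in the Ace/Spn/Treml4 gate. With thresholds halved there were 2 higher (Ace/Spn/Treml4), 1 higher and 1 lower (remaining), and medians of 0.11 (MHC class II) and -0.25 (S100a8). With thresholds doubled there were 2 higher and 5 lower (remaining) and a median of 0.26 (MHC class II). For these settings, and with a library left out, the share of all genes called between gates is not given.

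With each library left out in turn, the counts ranged from 0 to 2 higher and 0 to 2 lower in the Ace/Spn/Treml4 gate, from 0 to 1 higher in the S100a8 gate, and from 0 to 4 higher with 1 lower in the remaining cells. The medians ranged from 0.10 to 0.22 (C1q), -0.018 to 0.082 (Ace/Spn/Treml4), 0.093 to 0.15 (MHC class II), -0.34 to -0.27 (S100a8) and -0.12 to 0.13 (remaining). For knockout against control they ranged from -0.096 to 0.24 (C1q), -0.16 to 0.15 (Ace/Spn/Treml4), -0.17 to 0.040 (S100a8) and -0.19 to 0.017 (Ly6c2/Vcan).

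Shares of cells with many members, and the place of the knockout between, above or below the controls, moved with depth and the number required. For control 1, control 3 and knockout 4 they were 5.25%, 6.74% and 5.37% at 2000 UMIs, 28.9%, 38.3% and 28.6% at 5000 UMIs, 50.5%, 58.8% and 38.0% unthinned, 59.0%, 69.3% and 58.8% with at least 5 members, and 2.06%, 2.30% and 2.48% with at least 15. The median co-detection ratio of control 1 was 1.37 at 5000 UMIs.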
